A study of Homo sapiens with 10 samples.

Results

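The transcriptomic response of HEK293T cells to bacterial extracellular vesicles (bEVs) from L. plantarum was described from 3 of the 10 arrays of the series. These were 1 array of cells treated with the L. plantarum bEV and the 2 arrays labelled HEK293T control 1 and control 2, selected by their labels. The HEK293T line derives from human embryonic kidney and expresses the large T antigen of SV40. The treated cells received the bEV at its maximum tolerated dose (MTD) for 6 h, while no agent is given for the controls. The other 7 arrays each came from HEK293T cells given the bEV of 1 further strain at the MTD of that strain, so dose and strain cannot be told apart. Triplicate RNA was pooled into 1 composite sample according to the methods, which do not say this of the controls in particular. One pooled array therefore stands for the treatment, no spread between treated cultures is contained in it, and no test was run. The sources do not say whether the controls came from separate cultures.

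The labels hold 2 statements at odds with this design, since the title of the treated array numbers the line HEK295T while its cell line field reads HEK293T, and a protocol field names Pk2 as the agent. Titles of 6 of the other 7 bEV arrays number the line HEK294T, HEK296T or HEK297T in the same way. Genes that mark the HEK293 lineage were measured on the arrays. SIX2, a nephron progenitor factor, had a log2 signal of 7.28 in L. plantarum bEV-treated cells, against 7.45 and 7.44 in controls 1 and 2. KRT18, a simple epithelial keratin, had 7.51 in treated cells, against 7.59 and 7.65 in the controls. Of 9 measured lineage genes, 5 lay at or above the median signal of all genes (4.63), as did 2 of 7 measured markers of other cell types. Of the same 9 genes, 7 lay below the control mean and 6 below both controls, against 36.8% of all genes below both. NES, below the median signal, had 3.92 in treated cells, against 4.52 and 4.63 in the controls. It was the 1 lineage gene at least 1.5-fold below each control, against 1.28% of all genes.

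Bacteria of the order Lactobacillales have a single membrane and a thick cell wall, and they release small membrane-bound particles that carry proteins, lipids, nucleic acids and lipoteichoic acid. Host cells can take these particles up and can sense their cell wall material through Toll-like receptor 2. When amino acids run short or proteins misfold, the transcription factor ATF4 raises genes for amino acid supply, for the charging of tRNAs and for stress signaling.

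Values are log2 signals, and each difference is the L. plantarum array minus the mean of both controls unless a single control is named. A gene was called at 1.5-fold in either direction (0.58 on the log2 scale), once against the mean of both controls and once against each control alone. In a bulk array, fewer cells with a transcript and less of it per cell cannot be told apart. Of the 14884 named genes, 767 (5.15%) were called against the mean of both controls, 394 (2.65%) higher and 373 (2.51%) lower. Against each control alone, 193 (1.3%) were called higher and 191 (1.28%) lower. Control 1 differed from control 2 at the same fold in 809 genes (5.44%). That is a comparison of single arrays, here and below, and is not like a call against a mean or against both controls. Set against a single control in the same way, the L. plantarum array was past 1.5-fold in 1202 genes for control 1 and 1108 for control 2.

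Where signals were low, the controls themselves lay far apart. With the genes in 4 equal groups by signal, 269 and 314 of 3721 genes differed 1.5-fold between the controls in the lowest and the next group, while in the highest group 57 did. In that highest group the L. plantarum array was past 1.5-fold from each control alone in 22 genes higher and 36 lower. Of the 7442 genes with at least the median signal, 60 (0.806%) were higher than each control alone and 82 (1.1%) lower. Between the controls, as single arrays, 226 (3.04%) differed. The genes that follow lie at or above the median signal unless stated.

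Among those that passed against each control, the 12 highest held enzymes of choline and cysteine metabolism, a centriole kinase, and several pseudogenes and noncoding RNAs. GPCPD1, a phosphodiesterase that cleaves glycerophosphocholine, had 7.41 in L. plantarum bEV-treated cells, against 5.56 in control 1 and 6.19 in control 2. The difference was 1.84 from control 1 and 1.21 from control 2, and the controls lay 0.63 apart. CTH, cystathionine gamma-lyase, which makes cysteine from cystathionine, had 7.01 in treated cells, against 5.63 and 5.49 in the controls, a difference of 1.45. Neither gene was particular to this array, since the 7 other bEV arrays reached 7.52 for GPCPD1 and 7.20 for CTH. PLK4, the kinase that starts centriole duplication, had 6.66 in treated cells, against 5.77 and 5.75 in the controls. The other bEV arrays ran from 6.06 to 6.47 with a median of 6.29, so all 8 bEV arrays lay above both controls and the L. plantarum array was the highest. TRIM66, a chromatin reader of the tripartite motif family, had 5.44 in treated cells, against 4.68 and 4.29 in the controls, and the other bEV arrays stopped at 5.04. FBXO48, an F-box protein, had 7.15 in treated cells, against 6.08 and 6.44 in the controls.

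Of the noncoding genes in this set, 3 had a measured coding partner. These genes were picked for their large differences and the partners were not, so a smaller difference of the partner carries no information. RBM26-AS1, an antisense transcript of the RNA-binding protein gene RBM26, had 6.78 in treated cells, against 5.79 and 5.61 in the controls, a difference of 1.08. A second, dim probe set of RBM26-AS1 had a difference of 0.50, below 1.5-fold. RBM26 itself had a difference of 0.32, and the strand that each probe set reports was not tested. HSD17B7P2, a pseudogene, had 5.75 in treated cells, against 4.66 and 4.98 in the controls. Its parent HSD17B7, an enzyme of sterol and steroid metabolism with signals below the median, had 4.36 in treated cells, against 3.54 and 4.34 in the controls. ZNRF2P1, a pseudogene of the ubiquitin ligase ZNRF2, had 5.88 in treated cells, against 4.54 and 5.17 in the controls, while a second probe set of it had a difference of -0.23 and ZNRF2, below the median signal, had -0.02. KLRA1P, a lectin-like receptor pseudogene, had 5.53 in treated cells, against 4.41 and 4.27 in the controls, and the highest of the other bEV arrays had 4.79. LOC389765 had 6.89 in treated cells, against 5.36 and 6.01 in the controls. LOC285889 had 6.23 in treated cells, against 4.71 and 5.27 in the controls, with a second, dim probe set at -0.14.

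**Figure D1:**
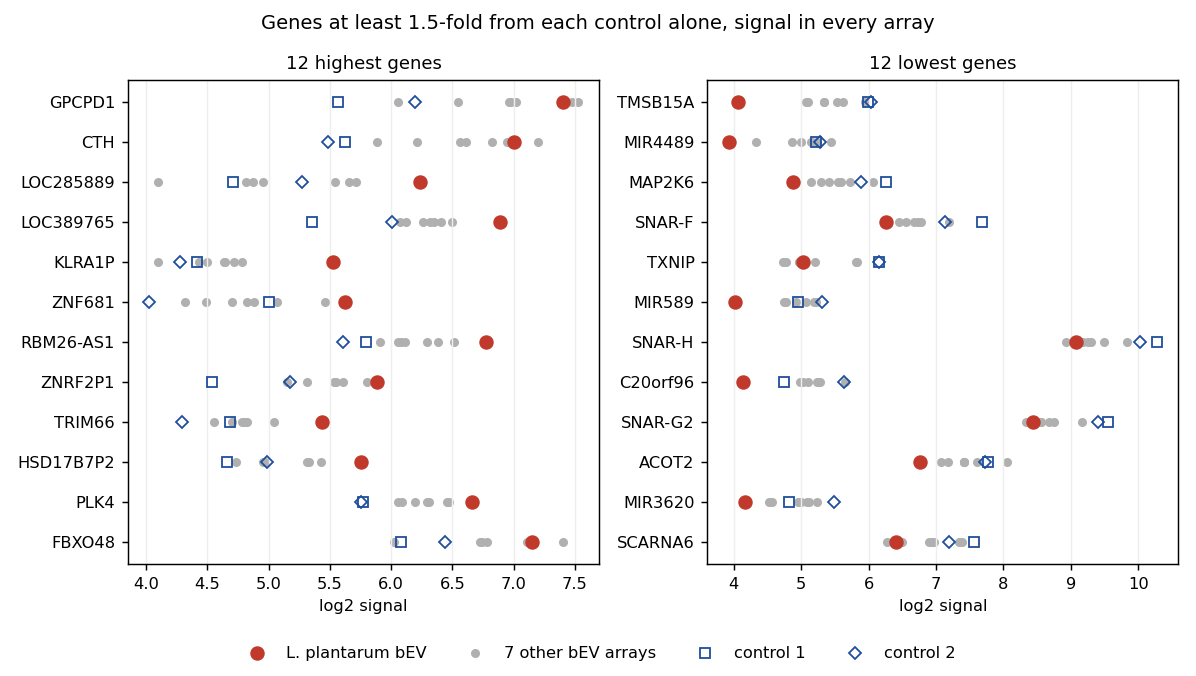
Log2 signal of the 12 highest and 12 lowest genes by difference from the control mean, of those past 1.5-fold from each control alone and not below the median signal (red, L. plantarum bEV; grey, the 7 other bEV arrays; open blue squares and diamonds, controls 1 and 2). TMSB15A at 4.06 lies apart from all 9 other arrays, while GPCPD1 and CTH lie within the range of the other bEV arrays.

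TMSB15A had the lowest difference of all these genes. This beta-thymosin, a small protein that binds actin monomers, had 4.06 in L. plantarum bEV-treated cells, against 5.99 and 6.04 in the controls, a difference of -1.96. The other bEV arrays had 5.08 to 5.95 with a median of 5.34, so the treated array lay 1.02 below the next lowest array. Its X-chromosomal paralog TMSB15B, below the median signal, had 4.37 in treated cells, against 4.54 and 4.69 in the controls. TMSB10, an abundant beta-thymosin, had 8.95 in treated cells, against 9.81 and 9.87 in the controls, and the other bEV arrays held both lower and higher values (8.73 to 9.79). Among 19 measured actin regulators none was called in either direction, against 5.15% of all genes.

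Kinase, redox and lipid genes stood beside it among the 12 lowest. MAP2K6, the kinase that activates p38 MAP kinases, had 4.87 in treated cells, against 6.25 and 5.89 in the controls, and it was the lowest of 10 arrays by 0.28. TXNIP, which binds and inhibits thioredoxin, had 5.03 in treated cells, against 6.15 and 6.15 in the controls. It stood within the range of the other bEV arrays (4.73 to 5.83), and its second, dim probe set had a difference of -0.77. ACOT2, a mitochondrial acyl-CoA thioesterase, had 6.76 in treated cells, against 7.77 and 7.73 in the controls, with 7.08 to 8.06 in the other bEV arrays. C20orf96 had 4.13 in treated cells, against 4.75 and 5.64 in the controls, which lay far apart from each other.

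TXNIP is a known target of the glucose-sensing factor MondoA and its partner MLX, which bind a carbohydrate response element (ChoRE), so its promoter is shown with the match in capitals (RefSeq, GRCh38.p14, chr1:145996530-145996829, minus strand).
TXNIP: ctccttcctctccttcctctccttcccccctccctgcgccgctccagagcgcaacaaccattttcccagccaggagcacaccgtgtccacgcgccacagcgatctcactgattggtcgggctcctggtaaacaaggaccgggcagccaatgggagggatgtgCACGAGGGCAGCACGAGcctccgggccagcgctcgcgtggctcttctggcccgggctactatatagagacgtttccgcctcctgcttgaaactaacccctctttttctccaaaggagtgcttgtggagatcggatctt
The letters searched on both strands were CACGNG, any 5 bases and CACGNG again, which 0.057% of 35116 windows of 300 bases around a gene start contain. A match is a description of the letters and not a measured binding site. MLX had 7.78 in treated cells, against 8.13 and 8.13 in the controls, and MLXIP, which encodes MondoA, had 7.03 in treated cells, against 6.68 and 6.87 in the controls. ARRDC4, the arrestin-like relative of TXNIP and a further MondoA target, had a difference of -0.20 and was named after its value was seen. Of 8 measured genes of the MondoA list, which also holds MLX, MLXIP and MLXIPL, TXNIP alone was called, against 5.15% of all genes. The list median was 0.07, with -0.04 from control 1 and 0.16 from control 2.

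**Figure D2:**
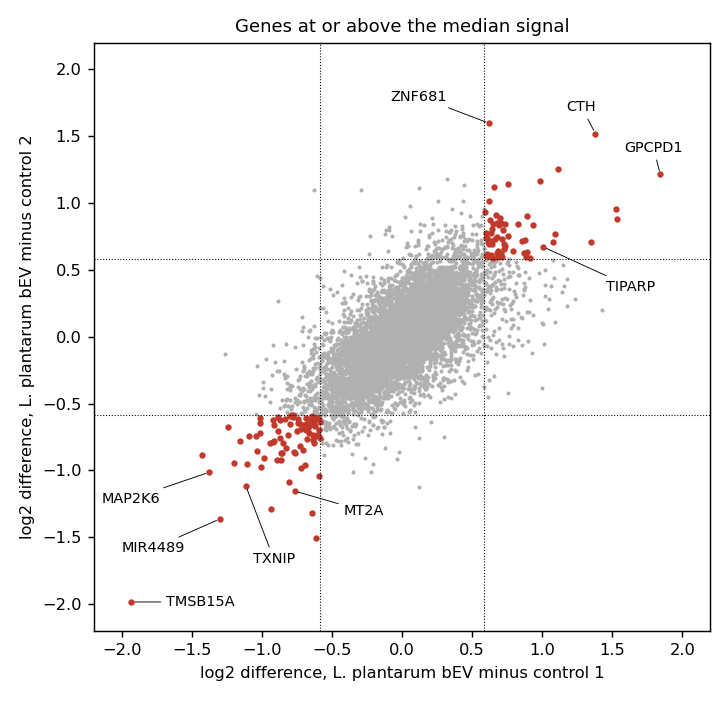
Log2 difference of the L. plantarum bEV array from control 1 (horizontal axis) and from control 2 (vertical axis) for the 7442 genes with at least the median signal. Dotted lines mark 1.5-fold, and red points are the 60 genes higher and 82 genes lower than each control alone.

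Genes for tRNA charging lay mostly above the controls. Of 17 measured cytosolic aminoacyl-tRNA synthetase genes, which encode the enzymes that load amino acids onto tRNAs, 15 lay above the control mean and 14 above both controls. Over all genes, 49.4% lay above the control mean and 35.7% above both controls. The median difference of the synthetases was 0.23, with 0.34 from control 1 and 0.20 from control 2, and that of all genes was 0.00. Only GARS1 was called (1 of 17, against 2.65% of all genes higher), and only against the mean. GARS1, the glycyl-tRNA synthetase, had 8.50 in treated cells, against 7.74 and 8.01 in the controls. TARS1, the threonyl-tRNA synthetase, had 10.06 in treated cells, against 9.52 and 9.64 in the controls, and was the highest of the 10 arrays. CARS1, for cysteine, had 6.19 in treated cells, against 5.51 and 5.93 in the controls. WARS1, for tryptophan, had 6.35 in treated cells, against 5.50 and 6.21 in the controls, and its second probe set had a difference of -0.43. The 7 other bEV arrays, set against the same controls, had list medians of 0.04 to 0.34.

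Of 22 measured ATF4 targets, 5 were called higher and 0 lower against the control mean, where 2.65% of all genes were higher and 2.51% lower. Relative to each control alone 3 were higher (CTH, STC2 and SESN2), against 1.3% of all genes. The median difference of the list was 0.18, and 13 members lay above the control mean and 10 above both controls, against 49.4% and 35.7% of all genes. STC2, a secreted glycoprotein of the stress response, had 8.04 in treated cells, against 7.44 and 7.30 in the controls. SESN2, which senses leucine and restrains mTORC1, had 7.62 in treated cells, against 6.93 and 6.98 in the controls. ASNS, the asparagine synthetase, had 7.95 in treated cells, against 7.38 and 7.26 in the controls, and VEGFA, an angiogenic growth factor, had 6.28 in treated cells, against 5.64 and 5.72 in the controls. By role, the medians depended on the control. The 8 stress response genes had a median difference of 0.39 from the mean, 0.20 from control 1 and 0.60 from control 2. The 9 amino acid synthesis genes had 0.10, with 0.23 from control 1 and -0.03 from control 2, and the 5 transcription factors had -0.01, with -0.11 and 0.14. The highest values of STC2 and SESN2 came from other strains, at 8.83 and 8.46. Against the same controls, the list medians of the other bEV arrays ran from -0.02 in L. acidophilus to 0.55 in L. rhamnosus.

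ATF4 with its partners binds the amino acid response element, whose core was searched as TGATGNAA on both strands in the same windows. It was found in 7 of 14 synthetase genes and 4 of 18 ATF4 targets with a promoter sequence, against 4.46% of 27305 genes. WARS1 was not among these 7 synthetases, and CTH, STC2 and SESN2 were not among these 4 targets. Each of those genes had either no match or no promoter sequence. Stretches of 40 bases around the match, in capitals, are shown for TARS1, GARS1, CARS1, AARS1 and ASNS, picked from genes with a match (RefSeq, GRCh38.p14). They lie at chr5:33440951-33440990 (plus strand), chr7:30594829-30594868 (plus), chr11:3057402-3057441 (minus), chr16:70289670-70289709 (minus) and chr7:97872453-97872492 (minus).
TARS1: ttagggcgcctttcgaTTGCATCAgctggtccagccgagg
GARS1: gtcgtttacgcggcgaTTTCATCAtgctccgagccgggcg
CARS1: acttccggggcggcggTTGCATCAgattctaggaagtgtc
AARS1: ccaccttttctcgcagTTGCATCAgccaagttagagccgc
ASNS: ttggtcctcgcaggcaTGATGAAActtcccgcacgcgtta
In the first 4 of these the core reads on the opposite strand of the gene, and in ASNS on the strand of the gene. No comparison of genes with and without the core was made.

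**Figure D3:**
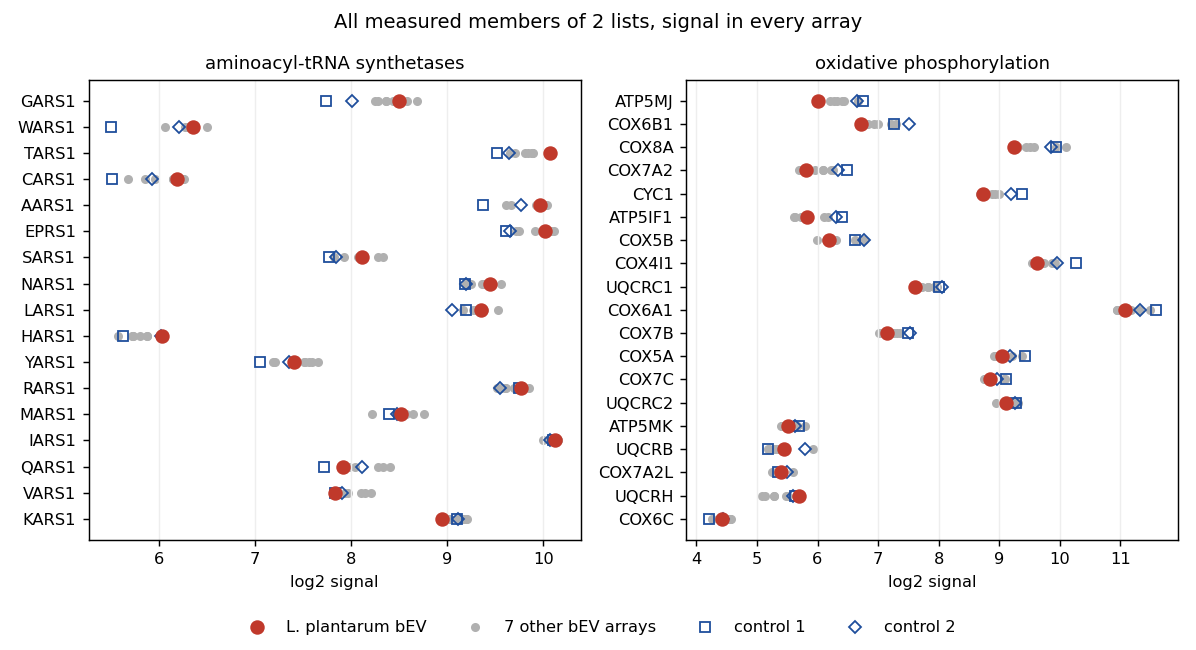
Log2 signal in every array for all 17 measured aminoacyl-tRNA synthetase genes and all 19 measured oxidative phosphorylation genes, ordered by difference from the control mean (red, L. plantarum bEV; grey, the 7 other bEV arrays; open blue squares and diamonds, controls 1 and 2). The red points lie right of both controls in 14 of the 17 synthetase genes and left of both controls in 15 of the 19 oxidative phosphorylation genes.

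Nuclear genes for mitochondrial energy production and mitochondrial translation lay below the controls. Of 80 listed oxidative phosphorylation genes, 19 had a named probe set, from complexes III and IV and the ATP synthase. Of these, 17 lay below the control mean and 15 below both controls, against 36.8% of all genes below both. The median difference was -0.38, with -0.39 from control 1 and -0.35 from control 2. ATP5MJ, a small subunit of the ATP synthase, had 6.01 in treated cells, against 6.75 and 6.66 in the controls, and COX8A, a subunit of cytochrome c oxidase, had 9.25 in treated cells, against 9.93 and 9.86 in the controls. These 2 of the 19 genes were called lower against each control alone, against 1.28% of all genes. COX6B1 (-0.67) and COX7A2 (-0.61), subunits of the same oxidase, passed against the mean only. Against the mean 4 of the 19 were called lower and 0 higher, where 2.51% and 2.65% of all genes were. The other bEV arrays had list medians from -0.44 in S. thermophilus to 0.03 in L. paracasei.

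Of 74 measured mitochondrial ribosomal protein genes, 62 lay below the control mean and 56 below both controls, and 8 were called lower and 0 higher, against 2.51% and 2.65% of all genes. The median difference was -0.26, with -0.35 from control 1 and -0.16 from control 2. The other bEV arrays had list medians from -0.27 in S. thermophilus to -0.04 in L. salivarius. L. rhamnosus and Lc. lactis both had -0.26, so the shift was not particular to this array. MRPL13 of the large subunit had 5.76 in treated cells, against 6.65 and 6.47 in the controls. MRPS26 of the small subunit had 6.63 in treated cells, against 7.50 and 7.25 in the controls, and MRPS2 had 6.51, against 7.20 and 7.16 in the controls. A second probe set of MRPS2 had 5.54 in treated cells, against 5.50 and 5.99 in the controls, a difference of -0.21. By their brightest probe sets all 3 were the lowest of 10 arrays, and 13 of the 74 genes were, against 11.5% of all genes. The 46 measured cytosolic ribosomal protein genes had a median difference of -0.11, and 1 was called in each direction against the mean. RPL32 had 6.18 in treated cells, against 5.32 and 5.87 in the controls, whereas RPS15A had 6.21 in treated cells, against 6.78 and 7.01 in the controls.

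**Figure D4:**
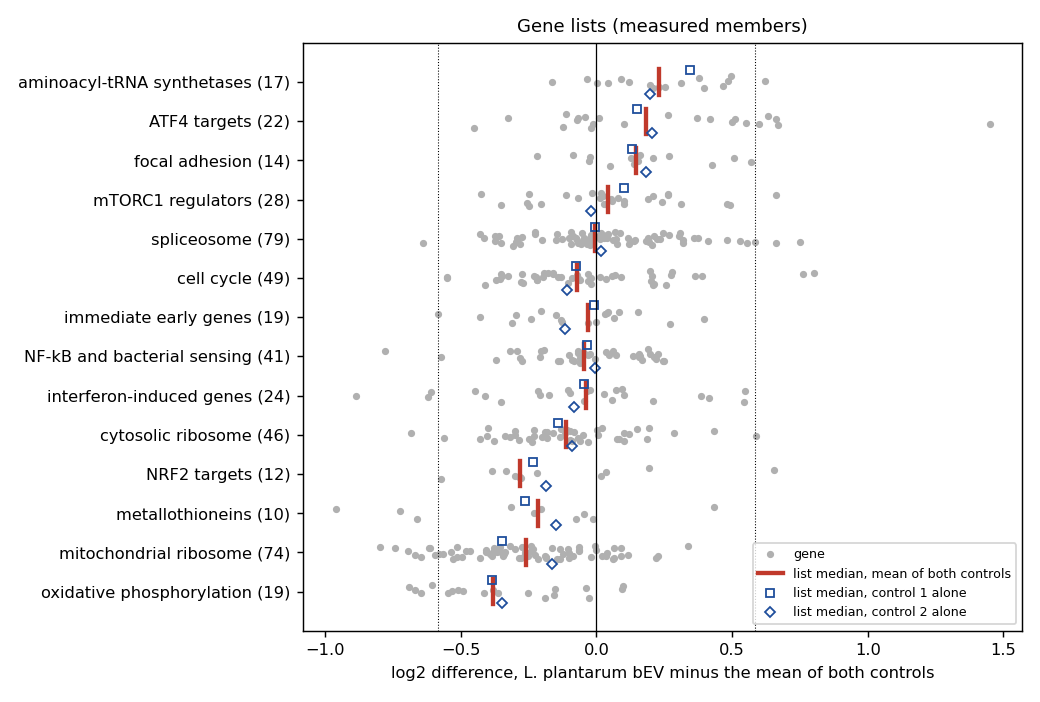
Log2 difference of the L. plantarum bEV array from the control mean for the measured members of 14 gene lists (grey points, with the number of measured genes after each name). Red bars are list medians, open blue squares and diamonds the medians against controls 1 and 2 alone, and dotted lines 1.5-fold. The medians run from 0.23 for the synthetases to -0.38 for oxidative phosphorylation.

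Short genes lay below the controls and long genes above them. The 6938 protein-coding genes at or above the median signal were divided into 5 equal groups by their span in the RefSeq annotation of GRCh38.p14, a division chosen after values had been seen. From the shortest group (median span 5.23 kb) to the longest (153 kb), the median differences were -0.15, -0.04, 0.02, 0.08 and 0.09. Of the 1388 genes of the shortest group, 8 were called higher and 68 lower against the mean. Of the 1388 genes of the longest group, 22 were called higher and 9 lower. Over all 6938 genes, 104 were called higher and 135 lower. The share of genes above the control mean was 29.3% in the shortest and 67.5% in the longest group. For control 1 minus control 2, the median of the longest group lay 0.01 above that of the shortest. The L. plantarum array had the largest difference between the longest and shortest groups of the 8 bEV arrays, at 0.24, followed by S. thermophilus at 0.22, and L. salivarius had the smallest at 0.05, all against the same controls. Many mitochondrial genes of the lists above are short. In the shortest group the 48 oxidative phosphorylation and mitochondrial ribosome genes had a median of -0.37 and the 1340 other genes -0.14. In the other groups, 43 such genes had -0.21 and 5507 other genes 0.04. The part of gene span in the results on these lists was not tested further.

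**Figure D5:**
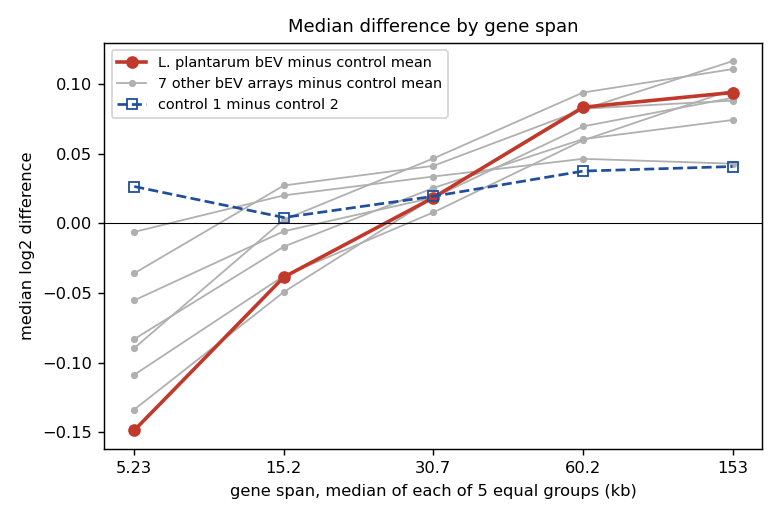
Median log2 difference in each of 5 equal groups of protein-coding genes with at least the median signal, by median gene span in kb on evenly spaced positions (red, L. plantarum bEV minus control mean; grey, the 7 other bEV arrays minus the same mean; dashed blue, control 1 minus control 2). The red line runs from -0.15 to 0.09, and the control line stays between 0.00 and 0.04.

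Zinc finger genes of the ZNF series, many of which encode repressors of the Krüppel-associated box family, lay mostly above the controls. This class was examined after its leading members had been seen. Of 300 ZNF genes at or above the median signal, 225 lay above the control mean, against 51.7% of all genes of that signal. Against the mean 22 were called higher and 5 lower, where 1.99% and 2.15% of all genes of that signal were. Relative to each control alone 13 were higher and 3 lower, against 0.806% and 1.1%. The median difference was 0.15. The other bEV arrays, set against the same controls, had medians from 0.05 in L. fermentum to 0.14 in S. thermophilus, so the shift was not particular to this array. The 131 members on chromosome 19, where such genes form clusters, had a median of 0.20, with 0.12 from control 1 and 0.27 from control 2, and 13 were called higher and 1 lower. The 169 members on other chromosomes had a median of 0.13, with 9 called higher and 4 lower, and the difference between these sets was not tested. ZNF681 had 5.62 in treated cells, against 5.00 and 4.03 in the controls, which differed by more than 1.5-fold from each other. ZNF225 had 6.12 in treated cells, against 5.33 and 5.48 in the controls, and ZNF266 had 7.54 in treated cells, against 6.82 and 6.73 in the controls. Both were the highest of 10 arrays, by 0.46 and 0.40. ZNF461 was the highest by 0.44 but lay below 1.5-fold, at 5.18 in treated cells, against 4.73 and 4.60 in the controls.

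The L. plantarum array was the highest of 10 for 1590 genes (10.7%) and the lowest for 1716 (11.5%). Each of the other 9 arrays was the highest for 1223 to 1868 genes and the lowest for 1186 to 1960, so the number of extreme genes did not set this array apart. Among genes with a large gap to the next array, FOXD1, a forkhead factor of the kidney stroma, had 5.83 in treated cells, against 6.69 and 6.70 in the controls, with 6.49 to 6.80 in the other bEV arrays. A second probe set of FOXD1 had a difference of -0.02. SUFU, an inhibitor of Hedgehog signaling, had 5.74 in treated cells, against 6.45 and 6.59 in the controls, 0.50 below the next array. HERC2P9, a pseudogene of the ubiquitin ligase HERC2, had 6.68 in treated cells, against 6.07 and 6.06 in the controls, 0.43 above the next array.

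Several small noncoding RNAs lay low in L. plantarum bEV-treated cells. The SNAR RNAs, small transcripts bound by the protein NF90, have near-identical copies, so their probe sets may not separate them. All 8 measured genes lay below the control mean, from -0.14 for SNAR-I to -1.16 for SNAR-F. SNAR-H had 9.08 in treated cells, against 10.28 and 10.02 in the controls, and the other bEV arrays had 8.93 to 9.84, all below both controls. SCARNA6, a Cajal body RNA that guides modification of spliceosomal RNA, had 6.40 in treated cells, against 7.56 and 7.19 in the controls. VTRNA1-3, a vault RNA named after its value was seen, had 6.74 in treated cells, against 7.83 and 7.48 in the controls.

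MicroRNA genes are reported by probe sets for their hairpins, which need not follow the mature form. Of 1072 measured microRNA genes, 154 lay at or above the median signal, and 979 could be matched to a mature sequence by symbol. Relative to each control alone, 45 were higher and 28 lower, against 1.3% and 1.28% of all genes, while 167 differed between the controls at the same fold. MIR4489 had 3.92 in treated cells, against 5.22 and 5.29 in the controls, and MIR589 had 4.02 in treated cells, against 4.96 and 5.31 in the controls, 0.73 below the next array. The let-7 and miR-30 families are shown because members with one seed, the bases that pair with target RNAs, had opposite or unequal differences. Mature sequences are from RefSeq (GRCh38.p14), with the seed in capitals.
MIRLET7A1: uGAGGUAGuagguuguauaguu
MIRLET7D: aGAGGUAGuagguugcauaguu
MIR30A: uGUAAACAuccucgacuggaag
MIR30E: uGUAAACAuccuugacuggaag
MIR589: uGAGAACCacgucugcucugag
MIR4489: uGGGGCUAgugaugcaggacg
MIRLET7A1 had 4.67 in treated cells, against 3.11 and 3.45 in the controls, below the median signal, and MIRLET7F1 from the same cluster on chromosome 9, also below it, had 2.46, against 1.57 and 1.58 in the controls. MIRLET7D of that cluster had 4.26 in treated cells, against 5.18 and 5.04 in the controls. The other 7 measured let-7 genes lay between -0.08 and 0.36. MIR30A, also below the median signal, had 5.35 in treated cells, against 3.61 and 4.21 in the controls, and the other bEV arrays ranged from 2.70 to 4.78. MIR30E had 4.94 in treated cells, against 5.02 and 4.93 in the controls.

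Metallothioneins, which bind zinc and copper, lay mostly below the control mean. Of 10 measured genes of the list, which also holds MTF1, 4 lay at or above the median signal. Below the control mean lay 9 of the 10 and below both controls 6, against 36.8% of all genes below both. Against the mean 3 were called lower and 0 higher, where 2.51% and 2.65% of all genes were. Only 1, MT2A, was lower than each control alone, against 1.28% of all genes. The list has a median span of 1.33 kb, and the part of gene span in its median was not tested. The median difference was -0.22, and the other bEV arrays had list medians from -0.34 in S. thermophilus to -0.01 in L. fermentum. MT2A had 5.03 in treated cells, against 5.80 and 6.18 in the controls, and the other bEV arrays had 5.03 to 6.03. MT1X had 6.08 in treated cells, against 6.64 and 6.97 in the controls. MT1E lay below the median signal, at 3.33 in treated cells, against 4.24 and 3.74 in the controls. MTF1, the factor that binds metal response elements and drives these genes, had 8.59 in treated cells, against 8.07 and 8.24 in the controls, and was the highest of 10 arrays. The letters TGCNCNC followed directly by GGC were searched for that element on either strand, and TGCNCNC without GGC was not marked. This longer string was found in 3 of 5 genes of the list with a promoter sequence, against 3.20% of all genes. The MT2A promoter holds 2 matches to the longer string, in capitals (RefSeq, GRCh38.p14, chr16:56608334-56608633, plus strand).
MT2A: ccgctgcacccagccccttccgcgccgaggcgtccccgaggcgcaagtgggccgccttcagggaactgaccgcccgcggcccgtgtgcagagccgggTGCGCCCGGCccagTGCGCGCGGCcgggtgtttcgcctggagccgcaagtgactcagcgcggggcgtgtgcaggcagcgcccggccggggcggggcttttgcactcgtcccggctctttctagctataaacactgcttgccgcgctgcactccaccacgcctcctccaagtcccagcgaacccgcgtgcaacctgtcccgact

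The lists of signaling and of bacterial sensing stand beside a share of 5.15% of all genes called against the mean. Of 51 measured MAPK pathway genes, 3 were called lower and 0 higher against the mean. Beside MAP2K6 these were MAP3K11, a kinase upstream of JNK, with a difference of -0.67, and DUSP9, a phosphatase of ERK, with -0.59. MAPK11, a p38 kinase with signals below the median, had 3.46 in treated cells, against 4.31 and 3.77 in the controls. Of 19 measured immediate early genes none was called. MYC had 7.38 in treated cells, against 7.85 and 7.77 in the controls, and FOS, which lay below the median signal, had 3.84, against 4.74 and 4.12 in the controls. A second probe set of FOS had 3.96 in treated cells, against 3.92 and 3.76 in the controls, with the opposite sign. Of 41 genes of NF-kB and bacterial sensing, TLR9 alone was called, with signals below the median, at 3.37 in treated cells, against 4.26 and 4.04 in the controls. At or above the median lay 18 of the 41. Of 24 interferon-induced genes, 3 were called lower, and USP18, which removes ISG15 from proteins, had 6.96 in treated cells, against 7.51 and 7.64 in the controls. IFIT1 lay near the bottom of the signal range, at 2.71, against 3.53 and 3.66 in the controls.

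Single regulators of lipid, redox and cell cycle control follow, from lists whose calls are to be read against the same 5.15% of all genes. INSIG1, which holds the sterol-sensing SREBP complex in the endoplasmic reticulum, had 8.24 in treated cells, against 7.39 and 7.53 in the controls, while the 15 measured sterol synthesis genes had a median of -0.06 (0.04 from control 1 and -0.14 from control 2) and INSIG1 alone was called. NFE2L2, which encodes the redox factor NRF2, had 6.02 in treated cells, against 5.31 and 5.43 in the controls, whereas the 12 genes of its list had a median of -0.28 and 8 lay below both controls. TALDO1, a transaldolase of that list, had 5.15 in treated cells, against 5.76 and 5.69 in the controls. WEE1, which inhibits the mitotic kinase CDK1, had 7.76 in treated cells, against 6.89 and 7.04 in the controls, and RBL1, the retinoblastoma-like protein p107, had 7.99 in treated cells, against 7.40 and 7.06 in the controls. Both were the highest of 10 arrays, and no other of 49 measured cell cycle genes was called. TIPARP, an ADP-ribosyltransferase induced by the aryl hydrocarbon receptor, had 8.62 in treated cells, against 7.62 and 7.95 in the controls, and the receptor gene AHR had 8.22 in treated cells, against 7.75 and 7.84 in the controls. For INSIG1, NFE2L2, TIPARP and AHR the 7 other bEV arrays also lay above both controls. They reached 8.36, 6.17, 8.83 and 8.28, above the L. plantarum values. Of 79 spliceosome genes, 3 were called higher and 1 lower, among them HNRNPC, which packages nascent transcripts, at 7.92 in treated cells, against 7.05 and 7.29 in the controls. PPIH, a cyclophilin of the tri-snRNP, had 6.84 in treated cells, against 7.50 and 7.46 in the controls.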

How the data were processed

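RNA of HEK293T cells was hybridised to Affymetrix GeneChip Human Gene 2.0 ST arrays, 1 array for each of 8 bEVs and 2 for controls. The authors deposited log2 signals per probe set for all 10 arrays. MAS5 is named in the labels without a version and GeneChip Command Console in the methods. The steps of background correction, normalization between arrays and summarization were not given in the sources used here. Quartiles of the arrays nearly coincide (25% quartile 2.95 to 3.00, median 4.62 to 4.67), so the log2 values were used as deposited. No fold change or p-value column was present or used, and 0 value columns remained unmapped. The number of arrays limits the precision, and a difference between composites that pool cultures cannot be set against a spread between cultures.

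Of 53617 probe sets, 16098 were named through the platform annotation, with symbols updated by Entrez ID to GRCh38.p14, and 37519 stayed unnamed. Each of 14884 genes was read from its brightest probe set over the arrays (779 had several). Differences were taken as the L. plantarum array minus the control mean and minus each control, and called at 1.5-fold as in the methods. With 1 treated array no test was run. The calling step was checked on simulated data. The labels pair no bEV array with a control, and all 8 bEV arrays share the controls.

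The members, the 35 gene lists and the tests were chosen with earlier results of these data known. Genes were named by rule: the 12 highest and 12 lowest past 1.5-fold from each control at or above the median signal, the 4 largest differences in each list, the 6 largest gaps to the other arrays in each direction, paralogs of these, and the 3 highest and 3 lowest below the median signal. Not every such gene is printed. The zinc finger, small RNA and gene span classes were chosen after values were seen, as were the parent genes of pseudogenes and antisense RNAs. The alternatives were each control alone, quantile normalization, median centring, genes at or above the median signal, averaged probe sets per gene, a floor of 1.80 (10th percentile), all probe sets and a 2-fold threshold. Python 3.11.15, numpy 2.4.6, pandas 2.3.3 and matplotlib 3.10.9 were used.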

Additional observations from a re-analysis of the deposited data

Results flagged for a closer look

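Probe sets without a gene name here entered no comparison of genes, yet 1434 of these 37519 probe sets were at least 1.5-fold above each control alone in the L. plantarum array and 903 were at least 1.5-fold below (3.82% and 2.41%). Between the controls, 13.8% of the unnamed probe sets differed at the same fold. At or above the median signal of the named genes lay 9079 of them, where 379 were higher and 304 lower than each control alone.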

How the results depend on the processing

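Of the named genes, 86 were called against the control mean. Named genes were checked only with each control alone, quantile normalization, median centring and averaged probe sets. All 86 kept their sign in these alternatives, and 61 stayed past 1.5-fold in all of them. Many were named for being past 1.5-fold from each control alone, so they could not fail the alternatives with a single control. Since most were picked for large differences, the kept signs do not measure how stable the calls are. With 1 control left out, 1108 to 1202 genes were called, 578 to 580 higher and 530 to 622 lower. At or above the median signal, 308 genes were called against the mean (148 higher, 160 lower), 142 against each control (60 higher, 82 lower), and 1680 lay outside the other 9 arrays (754 highest, 926 lowest). Over all probe sets these calls were 5458 (3189 higher, 2269 lower) against the mean and 2767 (1643 higher, 1124 lower) against each control. At 2-fold they were 65 (37 higher, 28 lower) and 25 (12 higher, 13 lower). These settings change the counts by the number of features, samples or the threshold they use. Quantile normalization gave 802 calls, of which 722 were shared with the 767 as deposited, and median centring 766, of which 729 were shared. The balance of directions moved with the scaling. As deposited 394 were higher and 373 lower, after quantile normalization 355 and 447, and after median centring 431 and 335. The array was the highest of 10 for 1518 genes and the lowest for 1802 after quantile normalization. After median centring these were 1861 and 1444. The medians of the oxidative phosphorylation, mitochondrial ribosome, ATF4 target and synthetase lists kept their sign throughout, in the ranges -0.40 to -0.35, -0.35 to -0.16, 0.15 to 0.37 and 0.20 to 0.34, while those of 15 of the 35 lists, sterol synthesis among them, changed sign in at least 1 alternative. No paired analysis was possible because the treated arrays carry no replicate number shared with the controls.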

Other observations

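Some gene groups had single members past 1.5-fold and list medians near that of all genes. HSPA6, an inducible heat shock protein whose signal lay below the median, had 4.20 in L. plantarum bEV-treated cells, against 3.31 and 3.56 in the controls, and was the highest of 10 arrays. HSPA1B, the main inducible heat shock protein, had 12.02 in treated cells, against 12.34 and 12.50 in the controls. Of the survival genes, MCL1 had 8.72 in treated cells, against 8.35 and 8.09 in the controls, and BCL2 had 6.27, against 5.87 and 5.61 in the controls. The proapoptotic gene BAX had 7.23 in treated cells, against 7.63 and 7.77 in the controls. None of these 3 genes reached 1.5-fold against the mean.

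Of 14 measured focal adhesion genes, 9 lay above both controls, against 35.7% of all genes, and none was called, against 5.15%. VCL, which links integrins to actin, had 9.36 in treated cells, against 8.78 and 8.92 in the controls. EHD2, a membrane-shaping ATPase of caveolae, had 4.83 in treated cells, against 5.66 and 5.66 in the controls, and RAB11FIP2, an effector in the recycling of endosomes, had 8.02 in treated cells, against 7.46 and 7.18 in the controls. TIMP2, an inhibitor of matrix metalloproteinases, had 5.06 in treated cells, against 5.75 and 5.61 in the controls, and was the lowest of 10 arrays. Among genes below the median signal, MIR3135A had 4.47 in treated cells, against 2.26 and 3.46 in the controls, which lay more than 2-fold apart, and SCARNA1 had 3.30 in treated cells, against 4.41 and 4.73 in the controls.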
